A study of Mus musculus with 12 samples.

Results

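Hnf4a, Hnf4g, Pax2, Pax8, Sox4, Sox9 and Maf encode 7 transcription factors that set or restore the identity of kidney tubule cells. They were taken from the table by gene name and make up 7 of its 33188 genes. All 7 passed the filter on low counts, as did 19772 genes in all. RNA came from whole kidney of wild-type (WT) mice, in 12 strand-specific libraries that formed 3 groups of 4. XZSW was the hyperuricemia model given Xin-Zi-Sheng-Wan decoction, a preparation of traditional Chinese medicine. HUA was the model alone, made with potassium oxonate, an inhibitor of the urate-degrading enzyme uricase, and hypoxanthine, a purine that is turned into uric acid. CTL was the control. The labels used here give neither age nor dose. They do not state that replicates are different mice, and the spread behind each p-value may therefore be partly technical. Library columns were tied to the groups through the letter in each sample's description, N for HUA and M for XZSW.

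HNF4α and HNF4γ are related nuclear receptors. HNF4α drives the maturation of proximal tubule cells, the reabsorbing cells that fill most of the kidney cortex, and the transporters and enzymes of these cells depend on it. PAX2 and PAX8 are paired-domain factors that establish the nephric lineage in the embryo, and both remain on in parts of the adult tubule. SOX9 and SOX4 are HMG-box factors of progenitor cells. In mouse kidney SOX9 is switched on in proximal tubule cells after injury and marks cells that repopulate the tubule. MAF is a leucine-zipper factor of proximal tubule cells, and it is also made by macrophages.

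The libraries held between 51643999 and 74288100 counts. Differences between libraries are given as CPM, counts brought to a common library size by TMM scaling, and levels of different genes are set side by side only in the deposited FPKM, which are per length. Mature proximal tubule genes, a check of the kidney label, were abundant in every library, and 28 of them summed to 39760 to 60120 CPM in XZSW, 13050 to 34670 CPM in HUA and 61670 to 70620 CPM in CTL. HUA2, HUA3, HUA4, XZSW3 and XZSW4 carried relatively more RNA of GC-rich genes than the CTL mean (0.227 to 0.367 log2 units for each 10% of GC), against -0.0605 to 0.05 in the other 7 libraries. This kind of library crossed the HUA and XZSW groups but held no CTL library. The change of each gene was therefore also fitted with the kind as a further term, which rests on the HUA and XZSW libraries alone.

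Hnf4a was among the most abundant of the 1432 transcription factor genes in the table. By mean FPKM it took rank 3 in XZSW (118.5 ± 17.4 FPKM), rank 8 in HUA (78.8 ± 20.3 FPKM) and rank 3 in CTL (123.9 ± 12.9 FPKM; SD, n = 4 throughout). Sox9 lay far down that order in XZSW and CTL and high in HUA, at rank 1012 in XZSW (0.351 ± 0.154 FPKM), rank 112 in HUA (13.1 ± 6.29 FPKM) and rank 1014 in CTL (0.223 ± 0.105 FPKM). Sox4 held rank 459 in XZSW, 86 in HUA and 585 in CTL. Both SOX genes moved by more places between HUA and CTL than the other 5 genes. Pax8 held rank 48 in XZSW, 20 in HUA and 59 in CTL, and Maf rank 42 in XZSW, 88 in HUA and 47 in CTL. Pax2, at mean levels of 3.99 to 6.57 FPKM, held rank 212 in XZSW, 336 in HUA and 305 in CTL. Hnf4g, at 1.08 to 2.72 FPKM, held rank 799 in XZSW, 811 in HUA and 413 in CTL. In CTL the order of mean FPKM was Hnf4a, Maf, Pax8, Pax2, Hnf4g, Sox4 and Sox9. Maf with 15.47 to 19.41 FPKM and Pax8 with 13.31 to 18.4 FPKM overlapped there, as did no other neighbours in that order. In HUA, Pax8 at 22.18 to 71.65 FPKM overlapped Hnf4a at 56.58 to 105.6 FPKM. Sox4 at 10.66 to 26.14 FPKM, Maf at 12.38 to 21.8 FPKM and Sox9 at 5.295 to 19.42 FPKM all overlapped one another. Pax8 also overlapped Sox4, and Sox9 overlapped Pax2 at 3.719 to 6.958 FPKM.

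**Figure D1:**
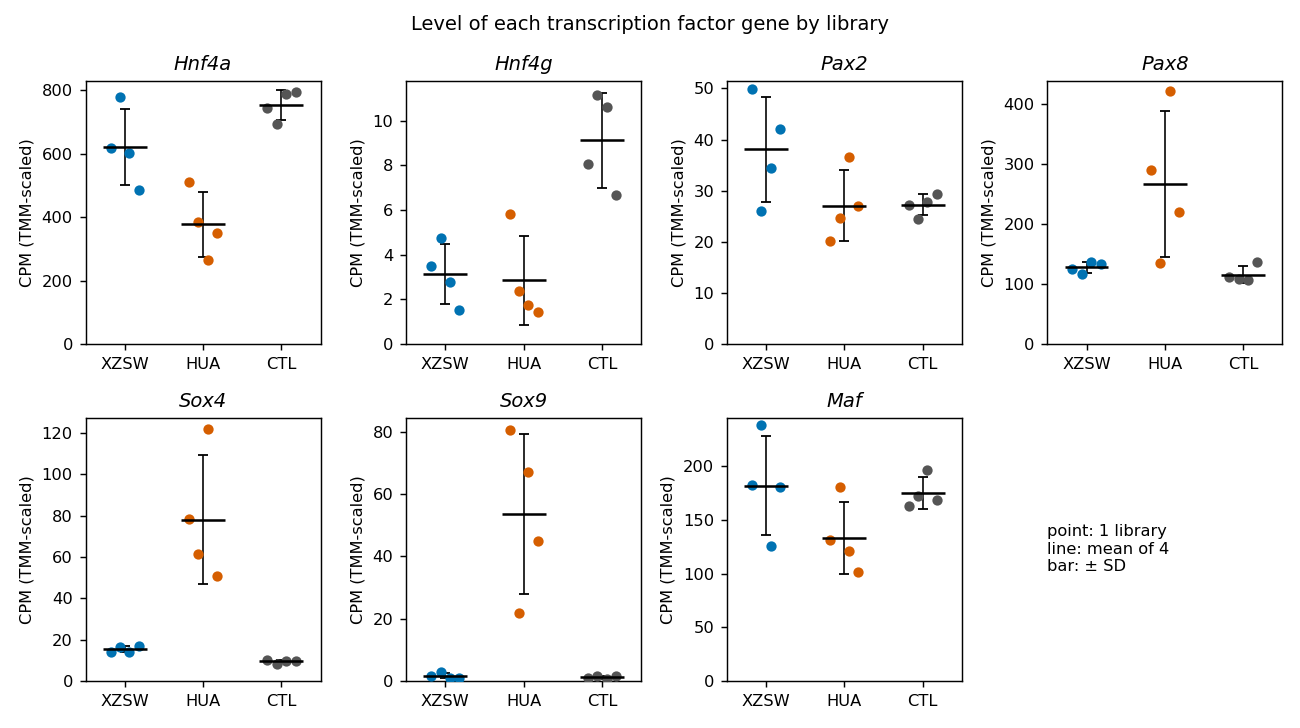
TMM-scaled CPM of each of the 7 genes, 1 panel per gene with its own linear axis from 0. Points are libraries, the line is the mean of 4 and the bar is ± SD. Sox4 and Sox9 stand high in all 4 HUA libraries, Hnf4a is lowest in HUA, and Hnf4g is low in both HUA and XZSW.

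HUA was set against CTL to see what the model did to these genes. Sox9, Sox4 and Pax8 rose, Hnf4a and Hnf4g fell, and Pax2 and Maf did not pass the test. Thus 5 of 7 genes were called by edgeR at an adjusted p under 0.05, where 27.8% of all tested genes were called (14.9% higher and 12.8% lower), and 23.4% of the 1231 tested transcription factor genes. The ranges of the groups did not overlap for 4 of the 7 genes, against 30.3% of all tested genes. The 7 genes were chosen with earlier results of these data known, so their counts beside these shares are a description only. The comparison of XZSW with HUA asks what the decoction did within the model. Hnf4a was higher in XZSW, and Sox9, Sox4 and Pax8 were lower, so that 4 of 7 genes were called, against 15.4% of all tested genes (7.09% higher and 8.34% lower). The ranges did not overlap for Sox9 and Sox4, 2 of 7 genes, against 18.1% of all. In XZSW against CTL 0 of 7 genes were called by edgeR, against 4.99% of all tested genes (2.72% higher and 2.27% lower), while at an unadjusted p under 0.05 there were 3 and DESeq2 called 2. The ranges of XZSW and CTL did not overlap for Hnf4g and Sox4, 2 of 7 genes, against 21.6% of all. The 3 comparisons share HUA or CTL libraries, so their values are given side by side and are not independent. The split of calls depended on scaling: TMM gave 2950 genes higher and 2538 lower in HUA against CTL, while scaling to library totals gave 5779 and 1320 and moved the median gene by 0.33 on the log2 scale.

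**Figure D2:**
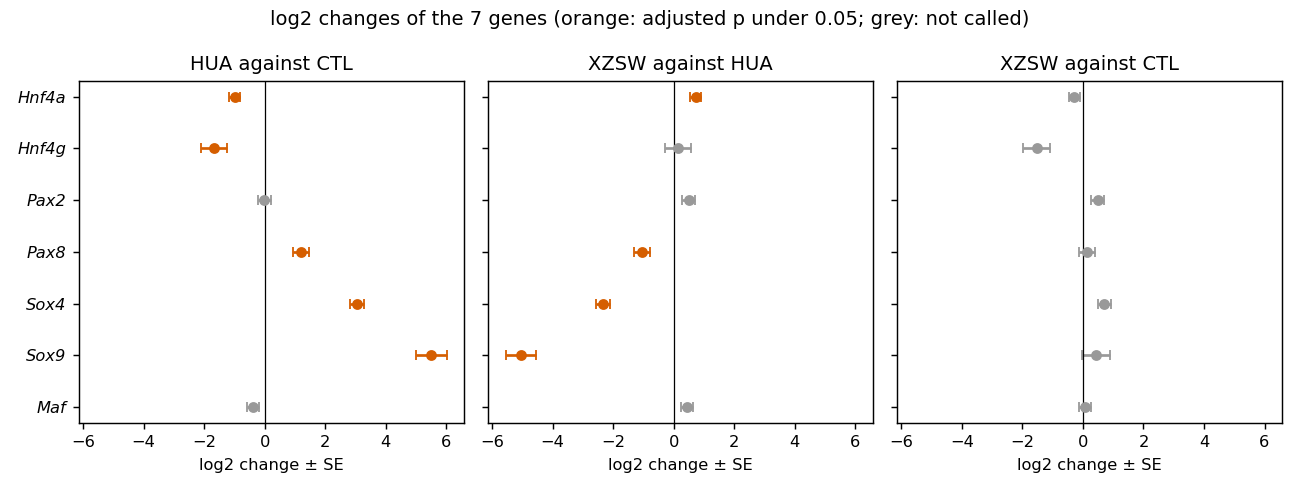
log2 change of each gene with its standard error (bars) from edgeR for the 3 comparisons, 1 panel each, on the same linear axis for all panels. Orange marks an adjusted p under 0.05. Sox9 spans 5.50 in HUA against CTL and -5.06 in XZSW against HUA, while no gene is orange in XZSW against CTL.

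Hnf4a (ENSMUSG00000017950, GRCm38 chr2:163506808-163572905, plus strand) had 617.4, 778.8, 604.1 and 487.3 CPM in XZSW, 511.5, 385.3, 265.5 and 351.5 CPM in HUA, and 743.9, 692.8, 788.1 and 795.9 CPM in CTL. Every HUA library lay below every CTL library, and XZSW lay between them, with XZSW4 under HUA1 and XZSW2 within the CTL range. Hnf4a fell 1.996-fold in HUA against CTL (log2 change -0.997, SE 0.194, edgeR adjusted p = 0.00236), rank 47 downward among the 1231 tested transcription factor genes. It was 1.643-fold higher in XZSW than in HUA (log2 change 0.72, SE 0.193, edgeR adjusted p = 0.0255). XZSW and CTL differed by -0.28 (95% interval -0.66 to 0.10, edgeR adjusted p = 0.412). The 95% intervals here and below are normal approximations from the SE, and are narrower than the edgeR test itself implies. With the kind of library in the fit the changes were -0.67 in HUA against CTL (edgeR adjusted p = 0.021) and 0.62 in XZSW against HUA (edgeR adjusted p = 0.0149). The call in XZSW against HUA was lost without HUA3 (0.57, edgeR adjusted p = 0.0657), HUA4 (0.67, 0.0559), XZSW2 (0.59, 0.0778) or XZSW3 (0.71, 0.0502), when only the 8 libraries compared were fitted (0.72, edgeR adjusted p = 0.0817), and under library-total scaling (0.54, edgeR adjusted p = 0.0512).

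An antisense gene, Hnf4aos, overlaps Hnf4a in the annotation. It had 4.64 ± 1.34 CPM in XZSW, 1.67 ± 1.11 CPM in HUA and 6.42 ± 1.05 CPM in CTL. Hnf4aos fell 3.854-fold in HUA against CTL (log2 change -1.95, SE 0.424, edgeR adjusted p = 0.00458) and was 2.785-fold higher in XZSW than in HUA (1.48, SE 0.419, edgeR adjusted p = 0.0312). Whether counting used the strand is not given in the sources used here, so reads of the overlapping genes cannot be told apart with certainty.

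Hnf4g (ENSMUSG00000017688, chr3:3508030-3658052, plus strand) was also lower in HUA than in CTL, but was not called in XZSW against HUA. It had 3.49, 4.765, 2.797 and 1.524 CPM in XZSW, 5.805, 2.399, 1.748 and 1.461 CPM in HUA, and 8.047, 11.15, 10.62 and 6.653 CPM in CTL. Both model groups lay below every CTL library and overlapped each other. Hnf4g fell 3.19-fold in HUA against CTL (log2 change -1.67, SE 0.44, edgeR adjusted p = 0.0126). Its change in XZSW against HUA was 0.14 (95% interval -0.70 to 0.98, edgeR adjusted p = 0.868), and in XZSW against CTL -1.53 (SE 0.438, edgeR adjusted p = 0.061). That last value passed under 4 of 10 alternatives, among them DESeq2 (-1.53, adjusted p = 0.00828) and the fit of the 8 libraries alone (-1.52, edgeR adjusted p = 0.0166), and without HUA1 (-1.52, edgeR adjusted p = 0.0192) or HUA4 (-1.52, edgeR adjusted p = 0.0473). Hnf4g has the lowest GC content of the 7 genes, 41.5%, and with the kind of library in the fit its change in HUA against CTL was -0.93 (edgeR adjusted p = 0.0724), which ends the call. Hnf4a and Hnf4g share no identical run longer than 17 bases in their longest transcripts.

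The ratio of Hnf4a to Hnf4g within a library does not depend on scaling between libraries. Its log2 was 6.86 ± 0.436 in XZSW, 6.37 ± 0.598 in HUA and 5.53 ± 0.408 in CTL (log2 of the FPKM ratio, mean ± SD, n = 4). All 4 XZSW ratios, 89.6 to 176.0, lay above all 4 CTL ratios, 33.9 to 65.3, a difference of 1.33 or 2.51-fold (exact two-sided permutation test, p = 0.0286, the smallest that 4 against 4 allows, 0.0571 adjusted over the 6 ratio tests). The differences of HUA from CTL, 0.84 (exact permutation p = 0.0857, adjusted 0.129), and of XZSW from HUA, 0.49 (exact permutation p = 0.257, adjusted 0.257), were smaller and missed the threshold. The last depends on a constant added to the low levels of Hnf4g: with 1 FPKM added to both genes it was 0.567 (exact permutation, adjusted p = 0.0429). The kind of library was not a term in the ratio tests. Among libraries with a low GC slope, as in CTL, the ratio was 96.5 and 89.6 in XZSW1 and XZSW2, 48.1 in HUA1 and 33.9 to 65.3 in CTL. In libraries of the other kind it was 118.0 and 176.0 in XZSW3 and XZSW4, and 83.0 to 132.0 in HUA2, HUA3 and HUA4. The kind is set by GC alone. HUA1, XZSW1 and XZSW2 also carried relatively more RNA of long genes than CTL did. Their slopes were 0.244, 0.169 and 0.123 log2 units for each doubling of length, against -0.0104 to 0.00749 in CTL. The longest transcripts of Hnf4a and Hnf4g hold 4362 and 2327 bases, and the part of length in the ratio was not tested.

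Sox9 and Sox4 were the members with the largest changes in HUA against CTL and in XZSW against HUA, while in XZSW against CTL Hnf4g had the largest. Sox9 (ENSMUSG00000000567, chr11:112782224-112787760, plus strand) had 1.61, 2.743, 1.078 and 0.9993 CPM in XZSW, 80.58, 21.97, 67.25 and 44.95 CPM in HUA, and 0.9064, 1.567, 0.5383 and 1.709 CPM in CTL. In read counts these were 59 to 179 in XZSW, 1511 to 6469 in HUA and 25 to 102 in CTL. The lowest HUA library stood above every library of the other groups, and XZSW and CTL overlapped. Sox9 rose 45.18-fold in HUA against CTL (log2 change 5.50, SE 0.515, edgeR adjusted p = 2.91e-05), rank 6 upward among the 1231 tested transcription factor genes and rank 150 among all 19772 genes. It was 33.34-fold lower in XZSW than in HUA (log2 change -5.06, SE 0.5, edgeR adjusted p = 0.00016), rank 5 downward among transcription factor genes. The difference of XZSW from CTL was 0.44 (95% interval -0.45 to 1.33, edgeR adjusted p = 0.611).

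Sox4 (ENSMUSG00000076431, chr13:28948919-28953713, minus strand) had 14.23, 16.56, 14.07 and 16.68 CPM in XZSW, 78.51, 61.39, 121.8 and 50.77 CPM in HUA, and 9.952, 8.33, 9.818 and 9.719 CPM in CTL. The 3 groups did not overlap, with HUA highest and XZSW next. Sox4 rose 8.262-fold in HUA against CTL (log2 change 3.05, SE 0.236, edgeR adjusted p = 6.96e-06). It was 5.078-fold lower in XZSW than in HUA (-2.34, SE 0.229, edgeR adjusted p = 0.00016). In XZSW against CTL it was 1.627 times as high, in 4 of 4 libraries, and missed the threshold (0.70, SE 0.221, edgeR adjusted p = 0.0797). It passed under 4 of 10 alternatives, among them DESeq2 (0.71, adjusted p = 0.031), and without HUA3 (0.72, edgeR adjusted p = 0.0178) or HUA4 (0.72, edgeR adjusted p = 0.0422). The longest identical run between Sox4 and Sox9 transcripts is 20 bases.

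The promoter of Sox4 is printed because its window holds several CCAAT boxes, the site of the general factor NF-Y, on 1 or the other strand. Of the 250 bases before the RefSeq start (GRCm38.p6), the 236 that precede annotated transcript sequence are given, at chr13:28953714-28953949 on the minus strand, with CCAAT or its reverse complement ATTGG in capitals. They begin 171, 104 and 47 bases before the start, and a further match lies 8 bases before it in the part not printed. A window with at least 4 matches was found for 276 of 32851 promoters (0.84%), and 1 or more for 33.8%. The sequence of the Pax8 window, at chr2:24475600-24475849 on the minus strand, is set beside it. Pax8 also rose in HUA, and its window holds 1 CCAAT, 57 bases before its start. Both windows of Hnf4a, which fell in HUA, hold 1 match each as well, 192 and 216 bases before the start. The motifs were chosen after the sequences had been seen, and a link between a match and a change was not tested.
Sox4 promoter: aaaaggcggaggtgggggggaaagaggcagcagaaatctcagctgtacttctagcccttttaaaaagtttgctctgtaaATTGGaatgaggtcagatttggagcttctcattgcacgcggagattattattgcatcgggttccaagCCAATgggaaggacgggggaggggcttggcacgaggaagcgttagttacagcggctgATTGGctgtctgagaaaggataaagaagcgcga
Pax8 promoter: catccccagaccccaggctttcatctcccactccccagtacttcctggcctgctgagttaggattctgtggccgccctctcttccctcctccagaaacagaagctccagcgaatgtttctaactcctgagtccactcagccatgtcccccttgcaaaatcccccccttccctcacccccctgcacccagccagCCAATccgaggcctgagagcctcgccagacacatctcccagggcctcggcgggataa
Neither the Sox4 nor the Pax8 window held the AP-1 site TGANTCA, found in 6.75% of promoters, or the cyclic AMP response element TGACGTCA, found in 1.55%. Neither held the SOX site ACAATGG, found in 3.02%, the HNF4 site CAAAGTCCA, found in 0.384%, or the TATA box TATAAA, found in 12.4%, searched on both strands. No match says only that these letters are not in the window. Sox9, Hnf4g and Maf have no entry in the RefSeq promoter table (GRCm38.p6).

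Of the PAX pair Pax8 was called and Pax2 was not, and the difference between them was not tested. Pax8 (ENSMUSG00000026976, chr2:24420560-24475599, minus strand) had 125.2, 116.1, 137 and 132.7 CPM in XZSW, 289.2, 134.9, 422.1 and 220.3 CPM in HUA, and 111.7, 108.4, 107.1 and 136.3 CPM in CTL. HUA2 fell just under CTL4 in CPM, and the other 3 HUA libraries stood above all XZSW and CTL libraries. Pax8 rose 2.301-fold in HUA against CTL (log2 change 1.20, SE 0.26, edgeR adjusted p = 0.00434). It was 2.088-fold lower in XZSW than in HUA (-1.06, SE 0.259, edgeR adjusted p = 0.0162), a call lost when only the 8 libraries compared were fitted (-1.06, edgeR adjusted p = 0.057). XZSW differed from CTL by 0.14 (95% interval -0.36 to 0.64, edgeR adjusted p = 0.79). Gm13415, on the opposite strand at Pax8, was not called in any comparison (log2 change 0.62 in HUA against CTL, edgeR adjusted p = 0.405).

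Pax2 (ENSMUSG00000004231, chr19:44756045-44837871, plus strand) had 49.95, 26.05, 34.39 and 42.09 CPM in XZSW, 20.19, 24.72, 36.58 and 26.94 CPM in HUA, and 27.3, 24.57, 27.84 and 29.39 CPM in CTL. All groups overlapped, with the highest values in XZSW1 and XZSW4. The change in HUA against CTL was -0.01 (95% interval -0.41 to 0.40, edgeR adjusted p = 0.982), and its sign turned under library-total scaling (0.32, edgeR adjusted p = 0.292). It was 0.49 in XZSW against HUA (SE 0.207, edgeR adjusted p = 0.13) and 0.48 in XZSW against CTL (SE 0.207, edgeR adjusted p = 0.185). Its antisense neighbour 1700039E22Rik averaged 0.852 CPM in XZSW, 0.211 CPM in HUA and 0.240 CPM in CTL, with every XZSW library above all others and no call (edgeR adjusted p = 0.133 against HUA and 0.22 against CTL).

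Maf (ENSMUSG00000055435, chr8:115682942-115707794, minus strand) had 182.6, 238.1, 125.9 and 180.6 CPM in XZSW, 130.9, 180.2, 120.7 and 101.3 CPM in HUA, and 162.5, 172, 196.5 and 168.2 CPM in CTL. All groups overlapped, although 3 of 4 HUA libraries lay below every CTL library. The change was -0.39 in HUA against CTL (95% interval -0.79 to 0.00, edgeR adjusted p = 0.172), 0.45 in XZSW against HUA (SE 0.202, edgeR adjusted p = 0.155) and 0.06 in XZSW against CTL (SE 0.201, edgeR adjusted p = 0.899). Without HUA2, the HUA library with the highest Maf, it passed in HUA against CTL (-0.54, edgeR adjusted p = 0.0474) and in XZSW against HUA (0.61, edgeR adjusted p = 0.0384).

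**Figure D3:**
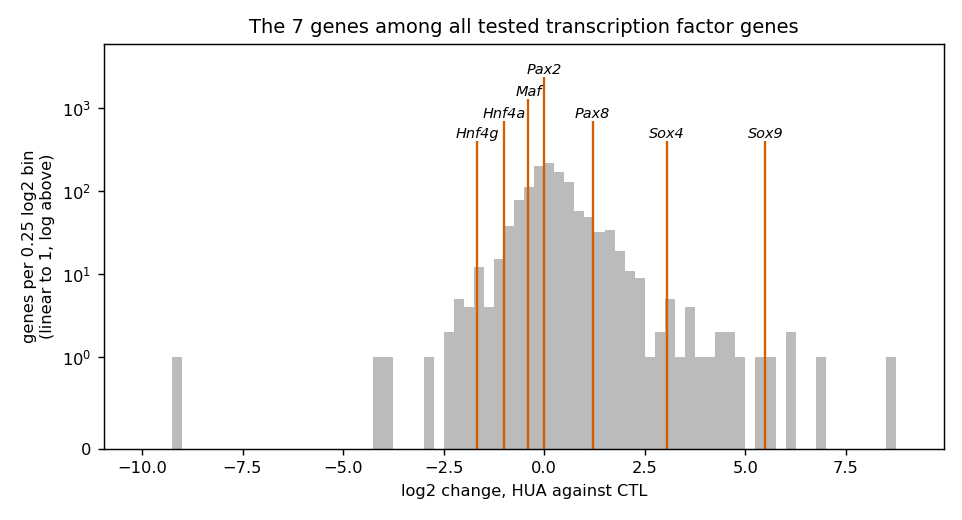
Histogram of the log2 change in HUA against CTL (x axis, bins of 0.25) over the 1231 tested transcription factor genes, with the number of genes on a y axis that is linear to 1 and log above. Orange lines mark the 7 genes. Sox9 and Sox4 lie in the upper tail and Pax2 near 0.

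The mean of XZSW lay on the HUA side of CTL for each of the 5 genes called in HUA against CTL. None of the 5 was called by edgeR in XZSW against CTL. The interval from the SE included no change for Sox9 (-0.45 to 1.33), Pax8 (-0.36 to 0.64) and Hnf4a (-0.66 to 0.10). A remaining change was therefore not shown for these genes. By group means of log2 CPM, the difference of XZSW from CTL was 8.48% of that of HUA for Sox9 and 13.3% for Pax8. It was 23.6% for Sox4 and 28.8% for Hnf4a, but 86.7% for Hnf4g. These shares are a description, since both changes use the same CTL libraries, and single libraries move the smaller ones. The edgeR change in XZSW against CTL was 0.053 for Sox9 without XZSW2, against 0.438 with all libraries, and 0.228 for Pax8 without CTL4, against 0.14 with all libraries.

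The balance of the repair factor to the identity factor was taken as the FPKM ratio of Sox9 to Hnf4a within each library. The ratio was 0.00206 to 0.0041 in XZSW, 0.0666 to 0.296 in HUA and 0.000782 to 0.00262 in CTL. On the log2 scale the means were -8.48 ± 0.436 in XZSW, -2.71 ± 0.898 in HUA and -9.26 ± 0.819 in CTL (SD, n = 4 each). HUA stood 6.54 above CTL, or 93.2-fold, in 4 of 4 libraries, and XZSW differed from HUA by -5.77, or 54.6-fold lower, also in 4 of 4 (exact two-sided permutation test, p = 0.0286 each, the smallest possible, 0.0571 adjusted over the 6 ratio tests). The size rests on the low Sox9 levels of XZSW and CTL: with 1 FPKM added to both genes the differences were 4.074 and -3.863 on the log2 scale (exact permutation, adjusted p = 0.0429 each). The unadjusted p of these differences was already the smallest possible without the constant. Their lower adjusted value only means that more of the 6 ratio tests then reached that p. XZSW and CTL differed by 0.77 (exact permutation p = 0.2, adjusted 0.24). Within HUA the members did not keep 1 order of libraries. HUA1 had the highest Sox9 and also the highest Hnf4a of the group, HUA3 had the highest Sox4 and Pax8 and the lowest Hnf4a, and HUA2 had the lowest Sox9 and Pax8 and the highest Maf.

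**Figure D4:**
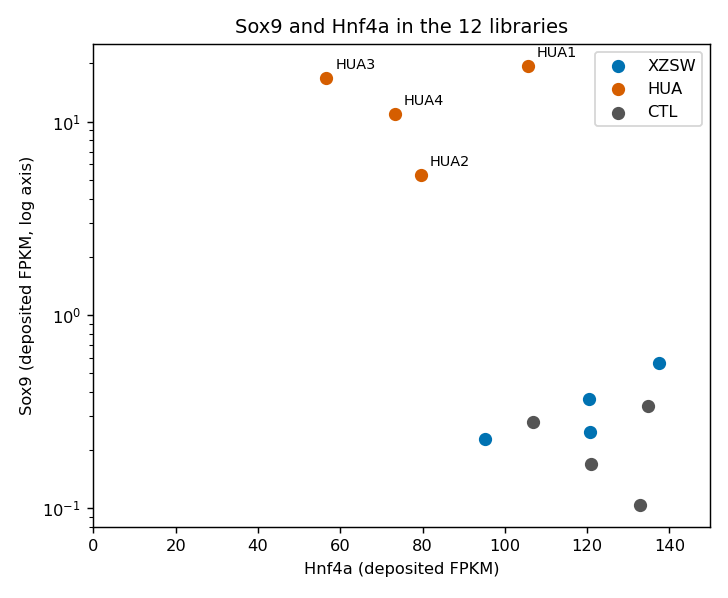
Deposited FPKM of Sox9 (y, log axis) against Hnf4a (x, linear axis) in the 12 libraries. The 4 HUA libraries lie at 5.295 to 19.42 FPKM of Sox9, apart from the XZSW and CTL libraries at 0.1039 to 0.5635 FPKM, and HUA1 has the highest Hnf4a of its group.

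Genes whose profiles over the 12 libraries were most like those of the called members were found by the root mean square (RMS) difference of centred log2 CPM, among 9332 genes with a mean of at least 2 FPKM. Ankrd1, a nuclear ankyrin-repeat protein of stretched and injured tissue, was nearest to Sox9 (RMS difference 0.578, where the spread of Sox9 about its own mean was 2.552), ahead of Socs3, a feedback inhibitor of cytokine signalling (0.788), and Akap12, a kinase-anchoring scaffold (0.799). Nearest to Sox4, whose own spread was 1.298, were Gsto1 (0.234), Arl4c (0.254) and Smox (0.291), which encode a glutathione transferase, a small GTPase and spermine oxidase. Nearest to Pax8 (0.602) were Capn2 (0.178), Nras (0.189) and Cdc42ep4 (0.195). For Hnf4a (0.498) they were Pgm1, a phosphoglucomutase (0.119), Lrpprc, a mitochondrial RNA-binding protein (0.125), and Aldh5a1, a mitochondrial aldehyde dehydrogenase (0.127). For Hnf4g (1.008) they were Sgtb (0.326), Acot12, an acyl-CoA thioesterase (0.358), and Cyp4a32, a fatty acid hydroxylase (0.398).

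Several other factors of the proximal tubule fell in HUA against CTL. Of 18 listed genes 8 fell, 1 rose and 9 were not called, where 12.8% of all tested genes were lower and 14.9% higher. Their median log2 change was -0.52, and that of all tested genes was 0.06. Klf15, a Krüppel-like factor, fell 3.104-fold (log2 change -1.63, SE 0.258, edgeR adjusted p = 0.000715), Esrra, which promotes mitochondrial genes, fell 2.115-fold (-1.08, SE 0.183, edgeR adjusted p = 0.00109), and Nr1h4, the bile acid receptor, fell 1.983-fold (-0.99, SE 0.206, edgeR adjusted p = 0.00351). Nr1i2, the xenobiotic receptor PXR, rose 2.872-fold (1.52, SE 0.241, edgeR adjusted p = 0.000726). In XZSW against HUA 4 of the 18 were higher and none lower, where 7.09% of all tested genes were higher and 8.34% lower. The median was 0.34, where that of all tested genes was 0.01. Among the 4 were Esrra (1.14, edgeR adjusted p = 0.00212), Klf15 (0.88, 0.0337) and Cebpa (1.00, 0.00599). The 8 genes that fell in HUA became 3 under library-total scaling, 4 with the kind of library in the fit, and 5 without HUA3 or CTL1.

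Some relatives of the SOX and MAF members were called. Of 10 tested SOX genes beside Sox4 and Sox9, Sox11 alone was called in HUA against CTL, where 27.8% of all tested genes were called. Sox11, a progenitor factor closely related to Sox4, averaged 0.406 ± 0.23 CPM in XZSW, 16.1 ± 17.9 CPM in HUA and 0.35 ± 0.245 CPM in CTL. It rose 45.49-fold in HUA against CTL (log2 change 5.51, 95% interval 3.88 to 7.13, edgeR adjusted p = 0.000544) and was 39.73-fold lower in XZSW than in HUA (-5.31, SE 0.815, edgeR adjusted p = 0.00166). Sox8, the close relative of Sox9, had a change of 1.67 in HUA against CTL and did not pass (edgeR adjusted p = 0.0656). Of 4 tested MAF relatives 1 rose and 1 fell. Maff, a small MAF without an activation domain, rose in HUA against CTL (1.93, SE 0.427, edgeR adjusted p = 0.00496). In XZSW against HUA Maff was 9.434-fold lower (-3.24, SE 0.45, edgeR adjusted p = 0.00107). Of the other PAX genes only Pax6 and Pax9 could be tested, and neither was called.

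Genes that mark mature and injured proximal tubule cells were called in large numbers in the same comparisons. Like the members and the other gene lists, both lists were chosen with earlier results of these data known, so their counts are a description only. Of all tested genes 27.8% were called in HUA against CTL and 15.4% in XZSW against HUA. Of 28 mature genes 22 fell, none rose and 6 were not called in HUA against CTL (median -1.49), and 20 were higher and none lower in XZSW than in HUA (median 1.10). With the kind of library in the fit 17 fell in HUA, while 9 were higher in XZSW than in HUA on the 8 libraries alone, 9 without HUA3 and 11 without XZSW2. Slc22a8, an organic anion transporter, fell 4.999-fold (log2 change -2.32, SE 0.299, edgeR adjusted p = 0.000196), Slc17a3, a urate exporter, fell 3.768-fold (-1.91, SE 0.209, edgeR adjusted p = 7.24e-05), and Slc22a12, the urate transporter URAT1, and Kap, an androgen-regulated kidney protein, fell 3.264-fold and 3.598-fold (edgeR adjusted p = 0.000337 and 0.000378). Of 21 genes of injured or incompletely repaired tubule cells 20 rose and none fell in HUA against CTL (median 2.64), and 18 were lower and none higher in XZSW than in HUA (median -2.13). The injury list includes Spp1, which the title of the study names. Krt18, a simple keratin, rose 18.04-fold (4.17, SE 0.255, edgeR adjusted p = 2.28e-06), Clu, a secreted chaperone, 21.57-fold (4.43, SE 0.291, edgeR adjusted p = 3.04e-06), Dcdc2a 11.47-fold (3.52, SE 0.251, edgeR adjusted p = 5.06e-06) and Krt8, the partner of Krt18, 5.933-fold (2.57, SE 0.231, edgeR adjusted p = 2.62e-05). In XZSW against CTL 1 mature gene was higher and 2 lower, and 3 injury genes, Clu, Krt18 and Lcn2, were higher. In whole kidney RNA, fewer cells of a type and less RNA per cell cannot be told apart.

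Of the 9 tested genes that work with SOX9 or lie downstream of it in cartilage and other tissues, 1 rose and 3 fell in HUA against CTL, where 14.9% of all tested genes were higher and 12.8% lower. Their median log2 change was -0.45. Fgfr2, a growth factor receptor, rose 1.979-fold (log2 change 0.99, SE 0.195, edgeR adjusted p = 0.00258). Hapln1, a cartilage link protein, fell 43.09-fold (-5.43, SE 0.97, edgeR adjusted p = 0.00146), Fgfr3 fell 2.078-fold (-1.06, SE 0.218, edgeR adjusted p = 0.00329) and Trps1 2.054-fold (-1.04, SE 0.218, edgeR adjusted p = 0.00369). The fall of Hapln1 was between very low levels, with means of 0.346 FPKM in CTL and 0.00879 FPKM in HUA. The cartilage collagen gene Col2a1 was at 0 in every XZSW and HUA library.

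Some markers of other cells were called as well, and their part in the results for the 7 genes was not tested. Among all tested genes 14.9% were higher and 12.8% lower in HUA against CTL. In XZSW against HUA 7.09% were higher and 8.34% lower. Of 14 macrophage markers 10 rose in HUA against CTL, among them Cd68 (2.67, edgeR adjusted p = 0.000104), and 3 were lower in XZSW than in HUA, a count that became 0 without HUA2, HUA3, XZSW2 or XZSW4 and 1 without XZSW1. Their summed level was 108.3 to 299 CPM in XZSW, 114.3 to 355.8 CPM in HUA and 80.4 to 143.6 CPM in CTL. Of 10 fibroblast and pericyte markers 6 rose and 1 fell in HUA against CTL, and they summed to 100.1 to 367.9 CPM in XZSW, 269.5 to 577.3 CPM in HUA and 116.7 to 145.5 CPM in CTL. Of 8 parietal and thin limb markers, 1 of which is Pax8 itself, 4 rose and 1 fell, with sums of 787.2 to 1305 CPM in XZSW, 921.1 to 2253 CPM in HUA and 1001 to 1315 CPM in CTL. Aqp1 is in this list and also among the mature proximal tubule genes. Akap12, another of this list, averaged 568.7 CPM in HUA (65.09 to 1011 CPM) and 15.58 CPM in CTL. Endothelial markers, where 1 of 10 fell, summed to 228.9 to 392.1 CPM in XZSW, 127.4 to 328 CPM in HUA and 217.2 to 296.6 CPM in CTL. Of 8 markers of collecting duct principal cells, where Pax2 stays on in the adult, 3 fell in HUA against CTL and 4 were higher in XZSW than in HUA, with sums of 607.3 to 1307 CPM in XZSW, 293.6 to 492.8 CPM in HUA and 690.8 to 728.6 CPM in CTL. Thick ascending limb markers summed to 1523 to 6204 CPM in XZSW, 2157 to 5147 CPM in HUA and 4553 to 5594 CPM in CTL, and 3 of 6 fell in HUA against CTL (median -1.41), namely Egf, the growth factor precursor (8.453-fold, log2 change -3.08, edgeR adjusted p = 0.00369), Kcnj1, the potassium channel ROMK (3.162-fold, -1.66, 0.0046), and Cldn10, a tight junction claudin (3.139-fold, -1.65, 0.00471). Of 5 distal convoluted tubule markers 2 rose and 1 fell, with sums of 1378 to 2275 CPM in XZSW, 727.6 to 1131 CPM in HUA and 795.8 to 951.8 CPM in CTL. Of 7 intercalated cell markers 3 rose and 3 fell, with sums of 349.4 to 572.3 CPM in XZSW, 288.9 to 467.5 CPM in HUA and 273.3 to 316.9 CPM in CTL. The 10 lymphocyte markers were low and summed to 8.89 to 17.56 CPM in XZSW, 2.672 to 9.669 CPM in HUA and 6.53 to 20.01 CPM in CTL. None of the 14 macrophage, 10 fibroblast, 10 endothelial, 8 principal cell or 8 parietal markers was at 0 throughout a group.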

How the data were processed

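The tools named are cutadapt 1.9, a read trimmer, and HISAT2 2.2.1, an aligner, with the build GRCm38, per the submitters' processing notes. How genes were counted, with which annotation and filters, is not given in the sources used here. Totals per library are read from the table. The deposited table holds whole-number counts per gene and FPKM made by the authors, per the file headers, with gene names, coordinates and a transcription factor family. No per-sample column was left unused.

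Counts were filtered with filterByExpr (minimum count 10; 19772 genes kept), given TMM factors of 0.856 to 1.15, and tested with the edgeR 4.0.16 quasi-likelihood test in R 4.3.3 over all 12 libraries (prior df 4.23), with Benjamini-Hochberg adjustment over all tested genes and calls at an adjusted p under 0.05. DESeq2 1.42.0, limma 3.58.1 on the log2 scale of FPKM plus a constant, other scalings and filters, a replicate block, the kind of library, the 8 libraries of a comparison alone and each library left out were alternatives. Ratios of FPKM within a library were compared with exact permutation tests (scipy 1.17.1). The test steps were checked on simulated data. Samples were not treated as paired by replicate number in the main fit, and no 2 libraries of a group were copies of each other.

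The members and gene lists were chosen with earlier results of these data known, and the motif list after the promoter sequences had been seen. Named genes were the members, the 4 tested genes of each list with the smallest p in HUA against CTL, the 3 genes most like each called member, and overlapping genes; not all of them are printed, and some results are not reported here. Cebpa, Lcn2 and the genes named only as called were picked after their values were seen. GC content, length and overlaps came from GENCODE M21, where 7 of 7 members had the table's chromosome and start. Promoters came from RefSeq GRCm38.p6, with 7 entries for 4 members.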

Additional observations from a re-analysis of the deposited data

Results flagged for a closer look

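In 27 checks (7 genes and 2 ratios in 3 groups of 4), 2 libraries stood apart from the other 3 of their group by a gap, as a share of the group's range, above Dixon's 95% critical value; chance alone flags about 1 in 20 groups. Pax8 was 136.3 CPM in CTL4, against 107.1 to 111.7 CPM in the other CTL libraries, a gap of 0.842 of the range. Without CTL4 the change of Pax8 in HUA against CTL was 1.29 (edgeR adjusted p = 0.0087). Sox4 was 8.33 CPM in CTL2, against 9.719 to 9.952 CPM in the other CTL libraries, a gap of 0.856 of the range. Without CTL2 the change of Sox4 in HUA against CTL was 2.99 (edgeR adjusted p = 0.000107).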

How the results depend on the processing

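The directions of Hnf4a, Hnf4g, Pax8, Sox4 and Sox9 in HUA against CTL held under all 10 alternatives and all 12 omissions of a library, and each stayed called except Hnf4g with the kind of library as a further term. Members called numbered 5 to 6 in HUA against CTL, 3 to 5 in XZSW against HUA and 0 to 2 in XZSW against CTL with 1 library left out. In XZSW against CTL DESeq2 called 2 members, library totals 1, limma on log2(FPKM + 0.1) 1, on log2(FPKM + 1) 1, the 8 libraries alone 2 and the replicate block 1; in XZSW against HUA the 8 libraries alone called 2.

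All genes called in XZSW against CTL numbered 987, and 2417 with DESeq2, 1750 with the kind of library, 1744 with limma on log2(FPKM + 0.1), 529 with no low-count filter and 2625 on the 8 libraries alone. In XZSW against HUA the 8 libraries alone called 1439 of all genes, against 3051. With 1 library left out these counts ranged from 4208 to 6347 in HUA against CTL, from 1711 (without HUA3) to 3817 in XZSW against HUA, and from 133 (without CTL2) to 1596 (without HUA1) in XZSW against CTL. Scaling to library totals moved the median gene by 0.33 in HUA against CTL, -0.17 in XZSW against HUA and 0.16 in XZSW against CTL. It gave 836 higher and 2714 lower in XZSW against HUA, where TMM gave 1402 and 1649, and 1221 higher and 224 lower in XZSW against CTL, where TMM gave 538 and 449.

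Values near 0 changed sign. Pax2 in HUA against CTL was 0.32 with library totals, 0.31 with limma on log2(FPKM + 0.1), 0.26 on log2(FPKM + 1), 0.045 with no low-count filter and 0.018 on the 8 libraries alone, and -0.15 to 0.15 with 1 library left out (0 without CTL3, 0.029 without CTL4, 0.146 without HUA1, 0.069 without HUA2, 0.023 without HUA4, 0.024 without XZSW3). Hnf4g in XZSW against HUA was -0.051 with the kind of library, -0.035 with library totals, -0.05 without HUA3, -0.087 without HUA4 and -0.131 without XZSW2, with a highest value of 0.731 without HUA1. Maf in XZSW against CTL was -0.10 without XZSW2 and 0.211 without XZSW3. The cause was not tested.

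With 1 FPKM added to both genes, the Hnf4a to Hnf4g ratio differed by 0.775 in XZSW against CTL and 0.567 in XZSW against HUA, and the Sox9 to Hnf4a ratio by 4.074 in HUA against CTL and -3.863 in XZSW against HUA (exact permutation, adjusted p = 0.0429 each). Of these, only the Hnf4a to Hnf4g ratio in XZSW against HUA was not at the smallest possible p without the constant (exact permutation p = 0.257). With 1 library left out, the Sox9 to Hnf4a ratio differed by 6.19 to 6.94 in HUA against CTL, -6.17 to -5.45 in XZSW against HUA and 0.42 to 1.00 in XZSW against CTL. The Hnf4a to Hnf4g ratio differed by 0.61 to 1.10, 0.23 to 0.72 and 1.13 to 1.49 in the same 3 comparisons. No p below 0.0571 is then possible.

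Deviations of same-numbered libraries were only weakly correlated (-0.0457 to 0.174), and in XZSW against HUA all correlations were positive (0.0356 to 0.174). Libraries with different numbers were not set beside them, so these values cannot exclude a pairing by number. With the replicate block 5466 genes were called in HUA against CTL, 3076 in XZSW against HUA and 813 in XZSW against CTL. Of list counts, 186 moved by over 1.5 times under an alternative and 1182 did not. Sox9 in XZSW and CTL rests on 25 to 179 counts, and its SD between libraries there was 0.668 and 0.774 on the log2 scale.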

Other observations

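Transcription factors of other parts of the nephron were called in both directions. Of 24 listed factors of the loop, distal tubule and collecting duct 7 rose and 2 fell in HUA against CTL. Among all tested genes 14.9% were higher and 12.8% lower, so the 2 that fell were below that share. In XZSW against HUA 5 were higher and 3 lower, where 7.09% of all tested genes were higher and 8.34% lower. Elf3, an epithelial ETS factor, rose 5.242-fold in HUA against CTL (log2 change 2.39, SE 0.229, edgeR adjusted p = 3.59e-05) and was 3.533-fold lower in XZSW than in HUA (-1.82, SE 0.225, edgeR adjusted p = 0.000541). Tfap2a, an AP-2 factor, rose 3.815-fold in HUA (1.93, SE 0.214, edgeR adjusted p = 8.12e-05) and was still 2.427-fold higher in XZSW than in CTL (1.28, SE 0.211, edgeR adjusted p = 0.0104). Gata2 was higher in HUA than in CTL (0.82, edgeR adjusted p = 0.011) and higher again in XZSW than in HUA (0.67, edgeR adjusted p = 0.0457). The 7 that rose in HUA became 3 with the kind of library in the fit and 4 without HUA3, CTL1, CTL2 or CTL4, and the 5 higher in XZSW than in HUA became 2 without HUA3 or XZSW3. The 3 lower in XZSW became 1 without HUA3, XZSW1 or XZSW3.

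Of 10 tested nephron progenitor factors 3 rose and 1 fell in HUA against CTL, where 14.9% of all tested genes were higher and 12.8% lower. Hes1, a Notch effector, rose 2.982-fold (1.58, SE 0.281, edgeR adjusted p = 0.00144), and Wt1, which adult podocytes also make, rose 2.163-fold (1.11, SE 0.295, edgeR adjusted p = 0.0131). Lhx1 fell 1.921-fold (-0.94, SE 0.246, edgeR adjusted p = 0.0121) and was 2.649-fold higher in XZSW than in HUA (1.41, SE 0.248, edgeR adjusted p = 0.00339). Of 7 podocyte markers 3 rose in HUA, with sums of 267.5 to 381.9 CPM in XZSW, 149.9 to 335.5 CPM in HUA and 164.7 to 195.7 CPM in CTL, and their part in the change of Wt1 was not tested. That count was 6 without HUA4.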
